A study of Mus musculus with 3 samples.

Results

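The cells described here are the mouse embryonic stem cells (mESC) of the series, taken as every mESC library with at least 100000 counts. This rule kept 203 of 215 mESC libraries, out of 591 of 622 libraries that pass it in the whole series, and it used no expression level of any gene. The cells were male, from a cross labelled C57BL/6 x CAST/EiJ, with C57BL/6J mothers per the study's methods, and came from clones that each grew from a single cell. They had been derived on feeder fibroblasts, moved to gelatin without feeders, and kept in serum medium with LIF, the MEK inhibitor PD0325901 and the GSK3 inhibitor CHIR99021 (2i). Single cells were captured by microfluidics, copied to full-length cDNA and sequenced as separate libraries, and each library is taken here as 1 cell. Whether a library held more than 1 cell was not tested. The other groups of the series were used only for the count of libraries above. The labels give 1 mESC sample, so values over cells are a description of this culture and carry no test.

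Embryonic stem cells grow from the inner cell mass of the blastocyst and can form every tissue of the embryo. A network of transcription factors around Pou5f1 (Oct4), Sox2 and Nanog holds this state, and in 2i with LIF the cells stay close to the naive epiblast. They divide fast with a short G1 phase, and even in 2i some genes, Nanog and the 2-cell and germline genes among them, are known to vary from cell to cell.

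The libraries carried 3 pool numbers, called pools 1, 2 and 3 here, and the number of cells kept was 87, 71 and 45. Per the study's methods the libraries of a capture chip were pooled together and some pools were then merged. Which clone a pool holds is not given in the sources used here, so clone, chip and sequencing pool cannot be told apart, and the pools are not used as replicates. Counts per cell had a median of 1649199 (203907 to 8105511), with pool medians of 1192517, 1912136 and 2002982. A median of 9582 genes (1928 to 12021) had at least 1 count in a cell. No library number and no identical column was shared between cells.

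Before any result, 13 cells stood apart. Their counts were over 20% mitochondrially encoded, against a median of 3.85% (0.343 to 70.0%) over all cells, and 9 of them were in pool 3, 3 in pool 2 and 1 in pool 1. They had a median of 602175 counts and 4434 genes, against 1709167 counts and 9681 genes in the other 190 cells. Nuclear stem cell factors were low in them. The median level of Nanog was 11.2 CPM (counts scaled so that every cell has the same total) in the 13 cells and 649.8 CPM in the 190, and that of Pou5f1 was 1.57 and 150.4 CPM. Lars2, the mitochondrial leucyl-tRNA synthetase, was high, with a median level of 14115 CPM against 2130 CPM. So were the rRNA-overlapping transcripts Gm26917, at 4298 against 329 CPM, and Gm42418, at 1188 against 26.5 CPM, and the nuclear RNA Malat1, at 3036 against 1350 CPM. The rRNA gene CT010467.1, which overlaps Gm42418, was not, at 7278 against 7314 CPM. Correlations below are therefore given over the 203 cells and over the 190 cells, and correlations by pool are of the 190 cells unless another set is named. The part of RNA quality in these differences was not tested.

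The stem cell label was borne out by its markers. Dppa5a (chr9:78367052-78368177, GRCm38), an RNA-binding protein of naive stem cells, had counts in all 203 cells, with a level of 213 CPM in the lowest, 7603 CPM in the median and 20764 CPM in the highest cell. Nanog (chr6:122707489-122714633), the homeobox factor whose loss lets stem cells differentiate, had counts in 201 cells, with a median level of 629 CPM and a highest of 1684 CPM. Zfp42 (Rex1, chr8:43295063-43306980), a zinc finger factor of the naive state, had counts in 202 cells, with a median level of 530.2 CPM. Pou5f1 (chr17:35506018-35510772) had counts in 197 cells with a median level of 144 CPM, and the nuclear receptor Esrrb (chr12:86361117-86521628) in 201 cells with a median level of 129 CPM. In all, 195 cells had counts of all 5 genes, 6 cells of 4, and 2 cells of 3 or fewer. Both of those 2 cells were among the 13, with mitochondrial shares up to 33.7%.

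The marker levels of the 3 pools overlapped widely. The median level of Nanog was 712, 581 and 441 CPM in pools 1, 2 and 3, that of Pou5f1 was 190, 117 and 111 CPM, and that of Dppa5a was 6219, 8787 and 8016 CPM. Pool 1 thus had the highest median of Nanog, Pou5f1, Zfp42 and Esrrb and the lowest of Dppa5a. Of the variance of log2(CPM + 1) over all 203 cells, the 13 among them, 12.5% lay between pools for Nanog, 14.04% for Pou5f1 and 4.58% for Dppa5a. The median was 2.52% over the 12094 genes with counts in at least 25% of the cells. The strip plots of the 5 markers show these values cell by cell.

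**Figure D1:**
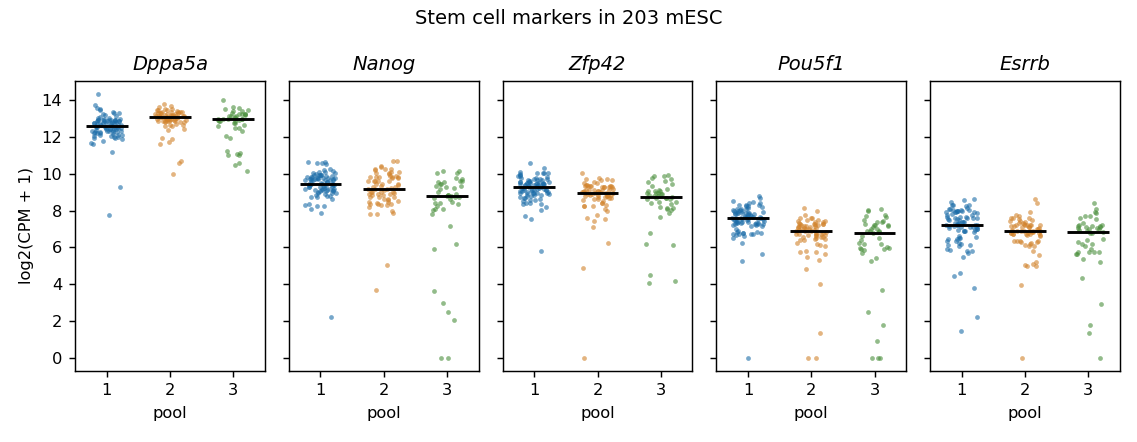
Levels of the 5 stem cell markers as log2(CPM + 1), 1 point per cell, by pool (87, 71 and 45 cells), with black bars at the medians. Dppa5a has no cell near 0, and the few cells near 0 for Nanog, Zfp42, Pou5f1 or Esrrb are spread below otherwise compact clouds.

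The SD of log2(CPM + 1) over all cells was 0.81 for Dppa5a, 1.15 for Zfp42, 1.36 for Esrrb and 1.62 for both Nanog and Pou5f1. The spread of a gene depends on its level, so each SD was set against the trend of SD on mean level over all 12094 genes. Nanog was 0.43 above that trend, Dppa5a 0.18 and Pou5f1 0.02 above it, Zfp42 0.05 below it and Esrrb 0.26 below it. Over all genes 53.9% were above the trend, with a median difference of 0.03. Without the 13 cells the SD of Nanog was 0.68, that of Pou5f1 0.92, that of Zfp42 0.59, that of Esrrb 0.99 and that of Dppa5a 0.58. Against the trend of the 190 cells, Dppa5a was then 0.63 above, Nanog 0.19 and Zfp42 0.05 above, and Pou5f1 and Esrrb 0.10 and 0.11 below. Leaving out the 13 cells thus narrowed all 5 markers, and Dppa5a had the lowest SD of the 5 in both sets. Its difference of 0.63 from the trend was larger than its own SD of 0.58. The fitted trend is thus negative at its high level, so that difference does not rank Dppa5a among the markers.

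Genes were compared in level only per length, as counts summed over cells per kilobase of merged exons and scaled as CPM are (the length-scaled level). By this measure Dppa5a was the most expressed gene of the culture, at 24634, with 21951, 26569 and 24731 in the 3 pools. Of the 20 highest genes, 7 were mitochondrially encoded and 8 were pseudogenes, whose reads may belong to their parent genes, 1 was an rRNA gene and 4 were protein-coding genes of the nucleus. The mitochondrial genes were led by the cytochrome oxidase subunits mt-Co1, with a length-scaled level of 18278, and mt-Co3, with 16264. The highest pseudogene, Gm28437, stood at 21128. Together the 20 genes held 10.1% of all counts.

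One of the 4, Ftl1-ps1 at 9933, is annotated as protein-coding but carries a pseudogene symbol, and genes with such symbols were left out of the next ranking.

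Among 14302 other protein-coding genes of the nucleus, Dppa5a was followed by genes of general upkeep. Ubb, a ubiquitin gene, had a length-scaled level of 5251, the elongation factor Eef1a1 had 3423, the chaperone Hsp90ab1 had 3099 and the ADP/ATP carrier Slc25a5 had 3094. The iron store Ftl1 stood at 2957 and the metallothioneins Mt2 and Mt1, which bind zinc and copper, at 2611 and 1884. Histone genes were represented by Hist1h2ap at 2116 and H2az1 at 1888, and antioxidant enzymes by Prdx1 at 1927 and Gpx1 at 1882. Only 3 of these 20 were ribosomal protein genes. The length-scaled level of the other markers was 556 for Zfp42 (rank 146), 555 for Nanog (rank 147), 128 for Pou5f1 (rank 817) and 42.3 for Esrrb (rank 2233), so Dppa5a was the only one of the 5 among the 20.

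Genes that varied most from cell to cell were ranked in 2 ways. The measure of the study, the ratio of variance to mean scaled among genes of similar mean, was led by single cells for several genes. It was highest for Gm42418, an rRNA-overlapping transcript, at 7.18, and for Ppp4r3a, a phosphatase regulator, at 6.82, where 1 cell held 32.9% of the counts of that gene. For Ginm1 1 cell held 23.6%, for Arhgef40 14.8% and for Nkap 11.5%. The ranking also held the rRNA gene mt-Rnr1 and 3 other mitochondrial genes, Bnip3 at 5.50, the lactate dehydrogenase subunit Ldhb at 4.78, the lipid carrier Apoe at 4.59, Dazl at 4.29 and Lefty2 at 3.60. The other measure, the SD of log2(CPM + 1) above its trend, gives less weight to single cells, and only Bnip3, Dazl and Lefty2 were among the 20 highest by both.

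By log spread Bnip3, a mitochondrial outer membrane protein that acts in mitophagy and is a textbook target of the hypoxia response, was the most variable gene, 1.69 above the trend. Its level ran from 0 through a median of 59.0 CPM to 3870.0 CPM, and 52 cells had less than 1 count. The median level was below 1 CPM in pool 1 and 263 and 259 CPM in pools 2 and 3, and 40.5% of its variance lay between pools. Bnip3 shares 46.7% of the 31-base words of its transcripts with AC160336.1, and the estimated counts of the pair can be divided between them in error, so its zeros are uncertain.

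Dazl, an RNA-binding protein of germ cells, was 1.39 above the trend, with a level from 0 through a median of 116 CPM to 2372 CPM. It had less than 1 count in 28 cells, and the pool medians of 87.5, 133 and 120 CPM lay close together, with 1.19% of the variance between pools. Rhox5, an X-linked homeobox gene of the germline and placenta, was also 1.39 above the trend, with a median level of 346 CPM, a highest of 1199 CPM and 15 cells under 1 count. Only 0.55% of its variance lay between pools. In both genes, therefore, low and high cells were found side by side in each pool.

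Lefty2, a secreted inhibitor of Nodal signalling, was 1.21 above the trend, with a median level of 116 CPM, a highest of 1792 CPM and 23 cells under 1 count. Its pool medians were 244, 77.4 and 56.5 CPM. Calcoco2, an autophagy receptor, was 1.18 above the trend, with pool medians of 940, 412 and 249 CPM and 17.6% of its variance between pools. Xlr3c, an X-linked gene of a lymphocyte-regulated family, was 1.03 above the trend. Its median level was 161 and 180 CPM in pools 1 and 2 and 5.65 CPM in pool 3. These 3 genes thus differed both between and within pools, whereas Dazl and Rhox5 differed mainly within them, as the strip plots of 6 variable genes show.

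**Figure D2:**
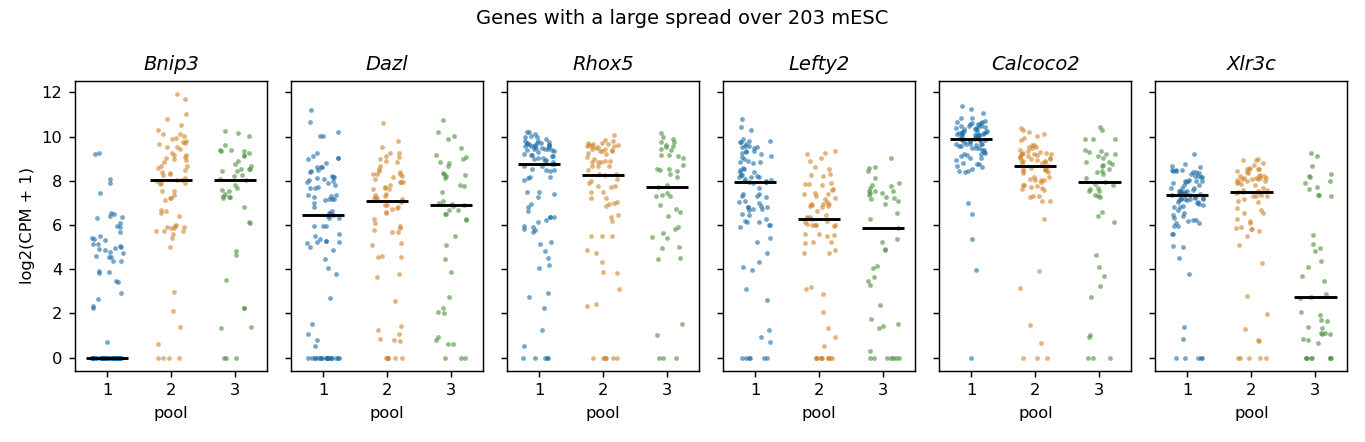
Levels of Bnip3, Dazl, Rhox5, Lefty2, Calcoco2 and Xlr3c as log2(CPM + 1), 1 point per cell, by pool, with black bars at the medians. Bnip3 is near 0 in most cells of pool 1 and Xlr3c is low in most cells of pool 3, while Dazl and Rhox5 reach from 0 to high levels in every pool.

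The next genes by log spread had smaller differences from the trend. Nup62cl, the kinase Sgk1, the nuclear receptor Nr0b1 (Dax1), the oocyte gene Nlrp4f and threonine dehydrogenase Tdh, an enzyme on which mouse stem cells depend, were 1.02, 1.02, 0.99, 0.97 and 0.90 above the trend. Cdc6, which loads the replicative helicase, and Plagl1, an imprinted zinc finger gene, were both 0.82 above it. Nr0b1 had less than 1 count in 38 cells and pool medians of 122, 84.9 and 28.9 CPM, and Nlrp4f in 43 cells with pool medians of 97.8, 64.9 and 8.28 CPM. Tdh was above 100 CPM in 189 cells. Of the 20 genes, 17 were also among the 20 highest in the 190 cells, where Hist1h2ap, the isoprenoid enzyme Idi1 and the nuclear RNA Malat1 took the other places. There Bnip3, Rhox5, Dazl and Lefty2 were 1.89, 1.70, 1.65 and 1.52 above the trend, so they led the ranking with and without the 13 cells.

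**Figure D3:**
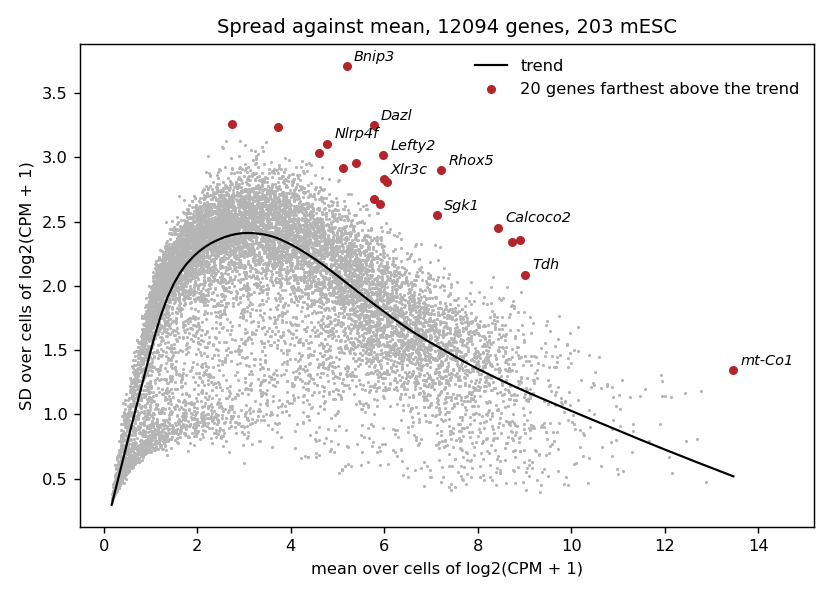
SD of log2(CPM + 1) over the 203 cells (vertical axis) against mean log2(CPM + 1) (horizontal axis) for 12094 genes, with the fitted trend as a line and the 20 genes farthest above it in red. Bnip3 is 1.69 above the trend, and the median gene lies 0.03 above it.

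In the plot of SD against mean level, the 20 genes stand off a band in which SD falls at high means. X-linked genes made up 6 of these 20 (Rhox5, Xlr3c, Nup62cl, Nr0b1, 1700013H16Rik and Klhl13), against 456 X-linked genes, 3.77%, among the 12094. The share was 10 of the 100 highest genes and 30 of the 500 highest. It was 4 of 20 in the 190 cells and 1 of 20 by the measure of the study. Over all genes, the median difference from the trend was 0.05 for X-linked and 0.03 for autosomal genes, so the X-linked genes at the top did not stand for the chromosome as a whole.

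Between pools, 126 of 12094 genes, or 1.04%, had at least 20% of their variance. The count was 420 in the 190 cells. Rps28, a ribosomal protein gene, had 51.5% between pools, with median levels of 55.6, 119 and 91.3 CPM. Bnip3 had 40.5%, and Slc16a3 (Mct4), which exports lactate, had 37.1% with median levels of 0, 10.01 and 18.1 CPM. Klf2, a naive pluripotency factor, had 20.97%, with median levels of 262, 129 and 98.4 CPM. Rps28 and Slc16a3 were picked out after their values were seen.

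Of the 20 genes highest by log spread, 19 had counts in at least 50% of the cells and formed 171 pairs. Their median Spearman correlation (rho, after removing pool and log10 counts), taken over the 203 cells only, was 0.13, against 0.0863 over all pairs of genes tested. In the 203 cells 3 of these pairs reached 0.5, against 0.763% of all pairs. These were Gm29216 with mt-Co1 at 0.71 (0.51 in the 190 cells), Calcoco2 with Sgk1 at 0.62 (0.54) and Calcoco2 with Tdh at 0.61 (0.31). The last was 0.07 in pool 1 and 0.59 in both other pools, over all their cells. The first of the 3 is a nuclear copy of mitochondrial sequence beside a mitochondrial gene. The cells of a correlation share their library preparation, pools and differences in depth, and rho is given as a description.

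The closest partners of the most variable genes told them apart. Over the 203 cells the closest partner of Bnip3 was AC160336.1, which shares sequence with it, at rho = 0.86. In the 190 cells Bnip3 went with the glycolytic genes Aldoa at rho = 0.51 (0.58 over the 203 cells), Eno1 at 0.46 (0.50) and Pgk1 at 0.46 (0.55), the last being 0.25, 0.85 and 0.55 in the 3 pools. Lefty2 went with its neighbour in sequence Lefty1 at 0.57 (0.57 over the 203 cells), and they share 25.7% of their 31-base words. Its next partners were the cholesterol synthesis enzymes Fdps at 0.37 (0.39) and Msmo1 at 0.36 (0.41). Calcoco2 went with Sgk1, as above, and with Gabarapl2, an autophagy protein of the Atg8 family, at 0.51 (0.72). Over the 203 cells Gabarapl2 was its closest partner and Tpm3-rs7, at 0.69, the next. The closest partners of Dazl were Sap30 at 0.34 (0.44) and Tex19.1, another germline gene, at 0.31 (0.37). The closest partner of Rhox5 was Gemin6 at 0.29 (0.38). In the 190 cells neither Dazl nor Rhox5 had a partner as close as those of Bnip3 and Calcoco2, with mitochondrial genes and predicted or pseudogene symbols left out. For Lefty2 the contrast rests on Lefty1, since its next partner, Fdps, was at 0.37.

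Among the markers, correlation over cells rested largely on the 13 cells. Nanog and Zfp42 had rho = 0.52 over 203 cells and 0.31 over 190. For Nanog and Pou5f1 rho was 0.38 and close to 0, for Zfp42 and Pou5f1 0.38 and 0.04, and for Dppa5a and Nanog 0.28 and -0.12. Of the 10 pairs of markers, Nanog with Zfp42 was the only one above 0.2 in the 190 cells. The closest partners of Nanog there were Sgk1 at 0.46 (0.56 over the 203 cells) and the mitotic cyclin Ccnb1 at 0.46 (0.57), and those of Zfp42 were the importin Kpna2 at 0.38 (0.42) and Sgk1 at 0.36 (0.51). That of Pou5f1 was the kinase Cdk4 at 0.36 (0.53) and that of Esrrb was fibronectin, Fn1, at 0.31 (0.26). Dppa5a went with its paralogs Dppa5b and Dppa5c at 0.62 (0.62), which share 36.2% of its 31-base words, and then with the ribosomal protein gene Rps20 at 0.52 (0.62).

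Across the 9040 genes with counts in at least 50% of the cells, 40856280 pairs were formed. In all 203 cells 311645 pairs, or 0.763%, had rho of at least 0.5, and 3312, or 0.00811%, had rho of -0.5 or less. In the 190 cells these counts were 4976, or 0.0122%, and 22, or 5.38e-05%, and the median rho of all pairs went from 0.0863 to 0.0075. Most of the count of strong pairs thus went when the 13 cells were left out. With genes detected and mitochondrial share also removed from the 203 cells, the counts were 37416 and 13. The count at 0.5 or more was 21506 with neither pool nor counts removed, and 26280 without pool 3, which holds 9 of the 13 cells.

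Of the 15 highest pairs over all cells, 14 joined genes that share transcript sequence and 1 had no sequence for a partner. Examples are Dppa5b with Dppa5c, whose transcripts share 100% of their 31-base words and whose rho was the highest of all, H2ac12 with Hist1h2ap at 0.93 (79.7%) and the splicing protein gene Snrpe with Snrpert at 0.93 (71.5%). Reads of such pairs can be assigned to either gene, so they say little about cells. Without them, the highest pairs were Cacybp with Sumo2 at 0.84 (0.52 in the 190 cells), Cacybp with Gcsh at 0.84 (0.42), the chaperonin Tcp1 with Ube2n at 0.82 (0.20), Eif5a with Pfn1 at 0.82 (0.44), Mdh2 with Pfn1 at 0.82 (0.43), Naca with Ndufv2 at 0.82 (0.29) and the glycolytic enzymes Eno1b and Pkm at 0.81 (0.73). Of these 7 pairs, Eno1b with Pkm moved least when the 13 cells were left out.

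In the 190 cells the 25 highest pairs without shared sequence, with rho of at least 0.3 in each pool and each gene taken at most 2 times, joined glycolytic, mitotic or ribosomal protein genes, Pgk1-rs7 among them, which is annotated as a processed pseudogene. Glycolytic pairs were Eno1b and Pkm at rho = 0.73, Eno1 and Pkm at 0.71 (0.73 over the 203 cells) and Aldoa and Tpi1 at 0.67 (0.74), the last being 0.54, 0.80 and 0.84 in the 3 pools. Mitotic pairs were the kinase Cdk1 and Kpna2 at 0.72 (0.67), Ccnb1 and Ube2c, a ubiquitin enzyme of the anaphase-promoting complex, at 0.70 (0.72), and the kinases Aurka and Plk1 at 0.66 (0.68). Cdk1 with Kpna2 was 0.65, 0.82 and 0.75 in the pools and Ccnb1 with Ube2c was 0.63, 0.73 and 0.74. Ribosomal pairs were Rpl32 and Rplp2 at 0.70 (0.68) and Rpl32 and Rpl41 at 0.70 (0.69). The condensin subunit Smc4 and topoisomerase Top2a, which both shape mitotic chromosomes, had 0.62 (0.64). Other kinds of genes were also among the 4976 pairs of at least 0.5, such as 43 of the 78 pairs of mitochondrially encoded genes.

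**Figure D4:**
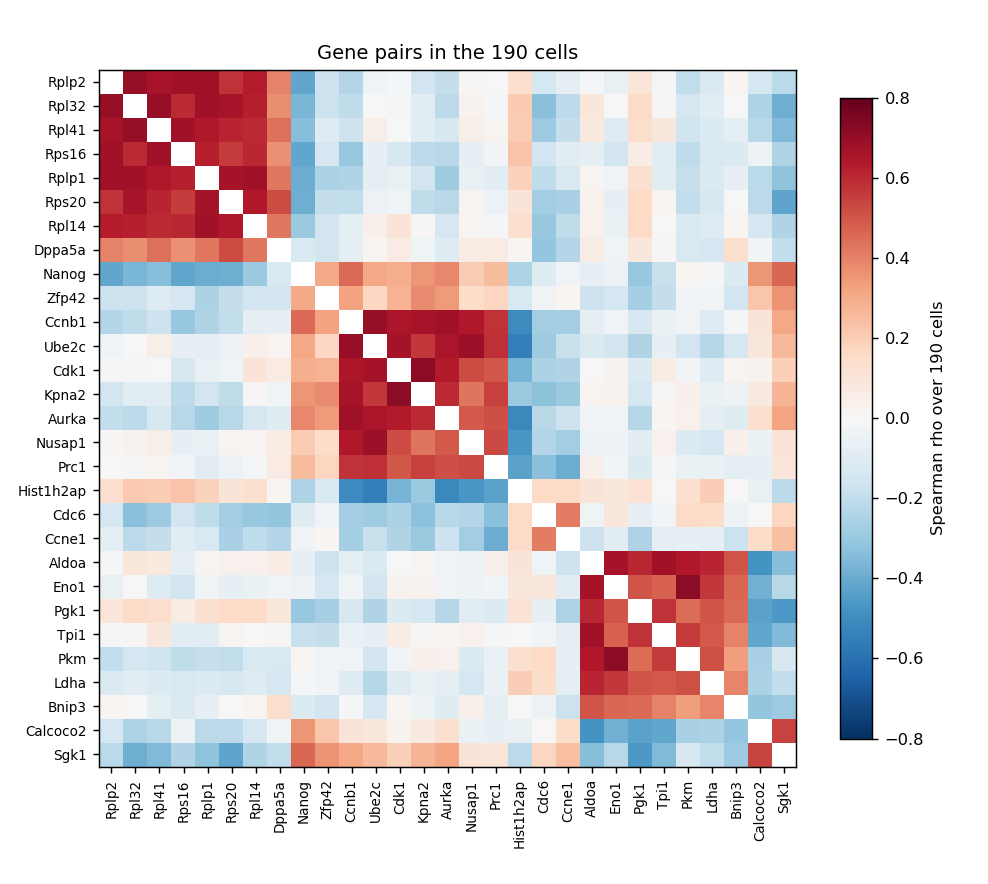
Spearman rho over the 190 cells for each pair of 29 genes, among them the markers, module members and variable genes, after removing pool and log10 counts, from -0.8 (blue) to 0.8 (red). Red blocks along the diagonal hold ribosomal, mitotic and glycolytic genes, and Hist1h2ap is blue against the mitotic genes.

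Negative pairs were few and weaker. Hist1h2ap, a replication-dependent histone gene made in S phase, and Ube2c had rho = -0.55 in the 190 cells (-0.51, -0.52 and -0.62 in the pools) and -0.35 over the 203. Hist1h2ap also ran against the kinesin Cenpe at -0.50 (-0.45 over the 203 cells) and Arl6ip1 at -0.53 (-0.43), so cells high in this histone gene were low in mitotic genes. Nanog ran against the ribosomal protein gene Rps24 at -0.48 (-0.38, -0.49 and -0.57 in the pools), and at -0.25 over the 203 cells. Gabarapl2 ran against the glycolytic isomerase Gpi1 at -0.51. That pair had -0.12 over all 203 cells, and Gabarapl2 with Aldoa went from 0.23 over 203 cells to -0.48 over the 190. The lowest pairs over all cells held Lars2, at -0.69 with Cnbp and -0.67 with Asns (-0.48 and -0.44 in the 190 cells), and Lars2 was among the genes with raised levels in the 13 cells.

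Grouping the genes by their correlations gave 8 modules with 1053 genes in all cells. The largest, of 858 genes led by genes such as Pfn1, Tcp1, Cacybp and Mdh2, had a mean rho of 0.47 over 203 cells and 0.05 over the 190. A module of 85 genes led by Rps25 and Rpl6l went from 0.47 to 0.21, and 3 modules of 10 or 11 genes, led by Ccnd3, Mrpl21 and Tigar, went from 0.44 to 0.22, 0.11 and 0.18. The other 3 moved less, as the paired points in the plot of module means show. A module of 41 genes led by Rpl32, of which 34 encode ribosomal proteins, had 0.47 and 0.48, a mitotic module of 19 genes led by Ube2c, Ccnb1 and Aurka had 0.48 and 0.47, and a glycolytic module of 18 genes led by Aldoa had 0.55 and 0.47.

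**Figure D5:**
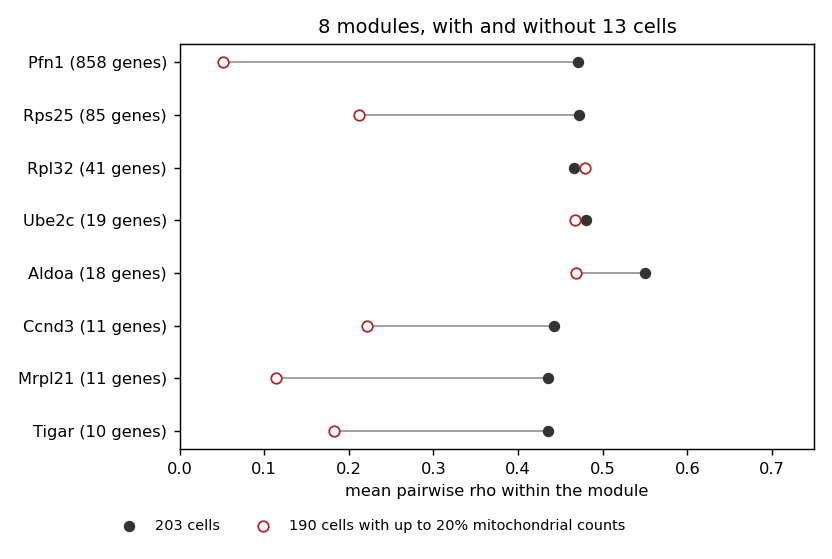
Mean Spearman rho within each of the 8 modules found over 203 cells, shown for all 203 cells and for the 190 cells with up to 20% mitochondrial counts. The ribosomal (Rpl32), mitotic (Ube2c) and glycolytic (Aldoa) modules stay near 0.47 or above, and the module of 858 genes falls to 0.05.

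Forming the modules anew in the 190 cells gave 3, with 84 genes in all, led again by ribosomal, mitotic and glycolytic genes. The ribosomal module had 50 genes, of which 46 encode ribosomal proteins, and took 33 genes from the module led by Rpl32, 12 from that led by Rps25 and 5 from none. The 4 other genes were Lars2, the rRNA gene CT010467.1, AC124742.1 and Rack1, of which Lars2 had raised levels in the 13 cells. It had a mean rho of 0.49 (0.47, 0.49 and 0.52 in the pools). Its genes were short, with a median exon length of 1719 bases against 3673 over all genes tested, and the part of length and RNA quality in this module was not tested. The mitotic module had 19 genes, 18 of them in the mitotic module of all cells, with a mean rho of 0.47 (0.42, 0.52 and 0.48). The glycolytic module had 15 genes, all in the earlier glycolytic module and Bnip3 among them, with a mean rho of 0.51 (0.41, 0.67 and 0.53). Of these, 5 are copies or relatives of another member (AC160336.1, Aldoart1, Pgk1-rs7, Eno1b and Tpi-rs11), and the other 10 genes had a mean rho of 0.49 (0.39, 0.64 and 0.50) in the 190 cells and 0.56 over the 203.

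The level of the genes by pool differed between members of a module. The median level of Ccnb1 was 619, 610.3 and 536 CPM in pools 1, 2 and 3 and that of Ube2c was 499, 460.4 and 528 CPM, while that of Nusap1, which bundles spindle microtubules, was 91.2, 139 and 83.4 CPM. The median level of Tpi1 was 391, 850.2 and 1033 CPM, that of Pgk1 was 173, 482 and 559.7 CPM and that of Aldoa was 1870.0, 2522 and 3022 CPM. That of Pkm was 2104, 2042 and 2393 CPM. The correlations were taken after removing pool means, so differences between pool means did not enter the modules.

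Promoters of 4 members of the glycolytic and 3 of the mitotic module are printed here because the genes of each moved together, and they were chosen with the correlations known. They are from RefSeq on GRCm38.p6, 5′ to 3′ on the strand of the gene, and end before the first annotated exon. For Bnip3, Ldha (the lactate dehydrogenase subunit of glycolytic cells, at its upstream start), Pgk1 and Tpi1 the capitals mark ACGTG or GCGTG on either strand, the core letters of the hypoxia response element.
Bnip3 (chr7:138909520-138909756, minus strand): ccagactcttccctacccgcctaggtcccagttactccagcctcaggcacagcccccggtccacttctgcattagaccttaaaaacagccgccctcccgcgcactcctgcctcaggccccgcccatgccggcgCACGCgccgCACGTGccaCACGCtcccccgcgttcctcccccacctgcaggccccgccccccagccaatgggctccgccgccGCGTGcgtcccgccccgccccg
Ldha (chr7:46845554-46845803, plus strand): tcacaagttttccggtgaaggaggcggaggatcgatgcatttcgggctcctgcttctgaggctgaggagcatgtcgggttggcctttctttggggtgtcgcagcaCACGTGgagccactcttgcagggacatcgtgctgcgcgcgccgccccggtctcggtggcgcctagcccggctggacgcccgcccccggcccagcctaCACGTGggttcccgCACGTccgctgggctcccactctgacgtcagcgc
Pgk1 (chrX:106186850-106187099, plus strand): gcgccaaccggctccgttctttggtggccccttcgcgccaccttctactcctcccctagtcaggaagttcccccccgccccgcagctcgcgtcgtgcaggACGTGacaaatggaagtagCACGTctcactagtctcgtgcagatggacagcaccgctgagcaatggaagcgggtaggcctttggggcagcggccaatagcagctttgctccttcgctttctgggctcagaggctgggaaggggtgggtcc
Tpi1 (chr6:124814297-124814408, minus strand): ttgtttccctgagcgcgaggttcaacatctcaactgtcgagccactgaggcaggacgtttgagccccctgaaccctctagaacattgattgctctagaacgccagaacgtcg

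The Bnip3 stretch held 5 matches counted on both strands, where the palindrome CACGTG counts on each, those of Ldha and Pgk1 held 5 and 2, and that of Tpi1, of 112 bases, held 0. A second start of Ldha, not printed, held 1. In the 300-base promoters, from 250 bases before to 50 after the start, ACGTG was found for 9 of the 12 glycolytic module genes with a promoter sequence, against 31.7% of the 5981 genes with counts in at least 50% of the cells and 21.8% of all 27025 promoters. GCGTG was found for 6 of the 12, against 59.0% and 35.2%. In the 250 bases before the start ACGTG was found for 7 of 12 genes, or 58.3%, against 27.2% and 18.5%.

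For the mitotic genes Ube2c, Cdk1 and Ccnb1 the capitals mark CCAAT, the letters of the CCAAT box, and TTTGAA, those of the cell cycle homology region, on either strand.
Ube2c (chr2:164769679-164769897, plus strand): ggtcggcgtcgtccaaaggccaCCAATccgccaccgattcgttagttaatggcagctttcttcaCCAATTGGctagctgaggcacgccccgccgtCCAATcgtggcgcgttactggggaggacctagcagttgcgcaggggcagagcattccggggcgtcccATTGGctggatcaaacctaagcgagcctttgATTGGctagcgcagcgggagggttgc
Cdk1 (chr10:69352939-69353162, minus strand): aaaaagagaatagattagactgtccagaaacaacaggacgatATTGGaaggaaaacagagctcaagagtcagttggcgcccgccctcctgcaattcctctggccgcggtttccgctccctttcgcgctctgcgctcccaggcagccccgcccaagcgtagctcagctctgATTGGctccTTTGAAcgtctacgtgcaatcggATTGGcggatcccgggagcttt
Ccnb1 (chr13:100786571-100786736, minus strand): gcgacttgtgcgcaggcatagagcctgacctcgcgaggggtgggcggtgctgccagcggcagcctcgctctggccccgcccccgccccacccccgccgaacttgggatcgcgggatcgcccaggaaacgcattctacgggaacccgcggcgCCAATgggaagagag

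Ube2c held 6 matches, all CCAAT, a pair of them overlapping on opposite strands, and Cdk1 held 3 of CCAAT and 1 of TTTGAA, and Ccnb1 held 1 of CCAAT. The letters CCAAT were found in the 300-base promoters of 14 of 15 mitotic module genes, or 93.3%, against 44.6% of the 5981 genes and 41.1% of all promoters. TTTGAA was found for 9 of the 15, or 60.0%, against 14.9% and 20.2%. In the 250 bases before the start TTTGAA was found for 6 of the 15, or 40.0%, against 13.2% and 18.3%. There CCAAT was again found for 14, against 42.1% and 37.5%. Of the 28 ribosomal module genes with a promoter, CCAAT was found for 11 and ACGTG for 7. These matches are counts of letters and not of bound sites.

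Between the mean levels of the 3 modules rho was small in the 190 cells and unlike from pool to pool. Ribosomal against mitotic it was -0.14 (-0.04, -0.15 and -0.33 in the pools), ribosomal against glycolytic -0.07 (-0.22, 0.01 and 0.01) and mitotic against glycolytic -0.04 (0.02, -0.21 and 0.26). Over the 203 cells, with the same member genes, these were 0.09, 0.23 and 0.19.

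The markers took up different places against the modules. Dppa5a ran with the ribosomal module at rho = 0.50 (0.43, 0.54 and 0.56 in the pools), and at 0.62 over the 203 cells. Nanog ran against it at -0.48 (-0.49, -0.36 and -0.64) in the 190 cells, but was at -0.04 over the 203, so its negative correlation appeared only once the 13 cells were left out. Nanog ran with the mitotic module at 0.41 (0.31, 0.51 and 0.45), and 0.49 over the 203 cells, and Zfp42 at 0.30 (0.35, 0.28 and 0.21), and 0.47 over the 203. Pou5f1 and Esrrb were within 0.2 of 0 for all 3 modules in the 190 cells and between 0.18 and 0.26 over the 203. Single pools differed. Pou5f1 with the ribosomal module was 0.29, -0.19 and -0.07, and Esrrb with the glycolytic module 0.23, -0.11 and -0.29.

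Of the variable genes, Bnip3 ran with the glycolytic module, taken without Bnip3, AC160336.1 and the copies of other enzymes, at 0.54 (0.46, 0.80 and 0.39), and 0.61 over the 203 cells. Against the whole module of 15 genes, Slc16a3 had 0.43 (0.17, 0.64 and 0.46), and 0.30 over the 203. Calcoco2 ran against it at -0.46 (-0.30, -0.58 and -0.55) and Sgk1 at -0.40 (-0.24, -0.62 and -0.24), while over the 203 cells Calcoco2 was near 0 and Sgk1 at -0.08. Sgk1 also ran against the ribosomal module at -0.40 (-0.25, -0.47 and -0.50), as did Nlrp4f at -0.34 (-0.25, -0.39 and -0.44) and Nup62cl at -0.28 (-0.34, -0.23 and -0.44), with -0.16, -0.14 and -0.01 over the 203. Hist1h2ap ran against the mitotic module at -0.52 (-0.58, -0.45 and -0.50), and -0.38 over the 203, and Cdc6 at -0.39, and -0.15 over the 203. The G1/S cyclin Ccne1, chosen after its values were seen, had -0.34 and was near 0 over the 203. Dazl, Rhox5 and Lefty2 were within 0.13 of 0 for all 3 modules in the 190 cells and between 0.11 and 0.27 over the 203. Single pools differed. Lefty2 with the ribosomal module was -0.02, 0.11 and -0.35, and Dazl with the mitotic module 0.09, 0.27 and -0.03.

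Lists of genes with known roles gave the same measures. The count of a list's genes above the trend is to be read against 53.9% of all genes over the 203 cells and 53.1% over the 190. A list's median rho over its pairs is set beside the median over all pairs, 0.0863 in 203 cells and 0.0075 in the 190. Of 28 lists, 25 had pairs to measure, and 19 had a median rho of at least 0.1 in 203 cells and 10 in the 190. In the 190 cells the median rho was 0.54 for the mitochondrially encoded genes (0.65 over the 203 cells), 0.39 for the ribosomal protein genes (0.46), 0.24 for the glycolytic enzymes (0.30), 0.21 for cholesterol synthesis (0.26) and 0.20 for G2M (0.29). It was 0.19 for amino acid stress (0.36), 0.17 for S phase (0.36) and 0.16 for p53 targets (0.21). The nuclear genes of the respiratory chain went from 0.47 in 203 cells to 0.09 in the 190, and heat shock genes from 0.44 to 0.10. The 13 mitochondrially encoded and the 19 nuclear respiratory genes thus differed in how far their order rested on the 13 cells.

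Naive pluripotency factors varied about as much as genes of their level. The naive factors had a median rho of 0.14 in 203 cells and 0.04 in the 190, and 5 of 14 were above the trend of SD (6 in the 190 cells), with a median of -0.04 (-0.08). Nr0b1 was 0.99 above, while Sox2 was 0.57 below and Sall4, a zinc finger partner of Pou5f1, 0.51 below. Klf5 and Tfcp2l1, factors that sustain self-renewal, had counts in 202 and 203 cells, with median levels of 134 and 358 CPM. Sox2, Sall4 and Klf5 were picked out after their values were seen. Other genes of stem cells had a median rho of 0.25 and 0.03, and 11 of 14 were above the trend (14 in the 190 cells).

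Genes of the primed state, which follows implantation, had counts in unequal numbers of cells. Their summed level had a median of 326 CPM (0 to 2242), Lefty2 among them. Nodal, the ligand that Lefty2 inhibits, had a median level of 67.8 CPM (113, 37.6 and 40.3 in the pools), the methyltransferase Dnmt3b 31.4 CPM and Otx2 6.08 CPM, and Fgf5 had counts in 2 cells. Of the 7 with counts in at least 25% of the cells, 6 were above the trend, in all cells and in the 190.

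Of 12 germline genes listed, 7 had counts in at least 25% of the cells. All 7 were above the trend, with a median of 0.30 (0.31 in the 190 cells) against 0.03 (0.02) over all genes, and their median rho was 0.20 over the 203 cells and 0.08 over the 190. Besides Dazl and Rhox5, Tex19.1 had a median level of 226 CPM in 195 cells and Dppa3 (Stella), which guards maternal methylation, 135 CPM in 196 cells. Imprinted genes were alike, with 10 of 12 above the trend, also in the 190 cells, and a median rho of 0.04 over the 203 cells and -0.01 over the 190. Slc38a4 had a median level of 183 CPM, Snrpn 196 CPM and Plagl1 110 CPM, with pool medians of 157, 105 and 56.1 CPM for the last. In the 190 cells both lists had a median rho under 0.1.

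Targets of the pathways that the culture medium acts on had unequal levels. Of genes induced by the MAPK pathway, which a MEK inhibitor blocks, Etv5 had a median level of 167 CPM (249, 128 and 114 in the pools), Spry2 had 1.04 CPM and Dusp6 had counts in 26 cells. Of Wnt targets, which a GSK3 inhibitor raises, the cyclin Ccnd1 had a median level of 46.4 CPM and Cdx1 had 32.96, 0 and 0 CPM in the 3 pools. Of LIF targets Tfcp2l1 had a median level of 358 CPM and Klf4 of 45.0 CPM. No culture without these agents was compared.

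Metabolic and stress genes lay unequally against the trend. Of cholesterol synthesis genes 17 of 19 were above the trend (18 in the 190 cells), with a median of 0.35 (0.39). Msmo1 had a median level of 252 CPM, Fdft1 236 CPM and Idi1 159 CPM. Of amino acid stress genes 14 of 16 were above the trend (13 in the 190 cells). Asparagine synthetase, Asns, had a median level of 1566 CPM and Psat1 of serine synthesis 551 CPM. Of p53 targets 8 of 11 were above it (9 in the 190 cells), with the cell cycle inhibitor Cdkn1a at a median level of 175 CPM and Trp53inp1 at 62.5 CPM. The hypoxia response genes, with 10 of 15 above the trend (11 in the 190 cells) against 53.9% (53.1%) of all genes, had summed levels with pool medians of 1356, 2131 and 2320 CPM, and the glycolytic enzymes 8916, 11377 and 13894 CPM. Of heat shock genes 5 of 10 were above the trend, of nuclear respiratory genes 9 of 19 and of metallothioneins 1 of 4 (7, 5 and 3 in the 190 cells). None of the 19 ribosomal protein genes was above the trend, with a median of -0.59, and 3 were in the 190 cells, with a median of -0.27. G2M genes, 26 of 33 above the trend in all cells and 29 in the 190, had medians of 0.20 and 0.40, and the glycolytic enzymes 0.07 and 0.35. All 3 lists thus had higher values against the trend once the 13 cells were left out. The trend fitted in the 190 cells is negative at the level of Dppa5a, so values of highly expressed genes there are uncertain. The part of the fit in these shifts was not tested.

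Markers of other cell types were searched in every cell, and a cell was counted when at least 3 genes of a list had at least 10 counts each. Primitive endoderm genes were found so in 35 of 203 cells, or 17.2% (95% exact interval 12.3 to 23.2%), through Sparc in 35, Lama1 in 29 and Dab2 in 23 of them, while the defining factors Gata4 and Sox17 were at that count in 3 each and Gata6 in 0. Trophectoderm genes, with 6 of the 9 present in the data, were found in 23 cells, or 11.3% (7.32 to 16.5%). Tfap2c was at that count in 23 and Tead4 in 21 of them, and stem cells also express both. The trophectoderm factor Eomes was so in 14, Gata3 in 3, and the keratin genes Krt18 in 10 and Krt8 in 1. Feeder fibroblast genes, with 6 of the 12 present in the data, were found in 17 cells, or 8.37% (4.95 to 13.1%), led by Fn1 and Vim. Col1a1 was at that count in 11 of these cells, Thy1 in 5, Tagln in 2 and Col1a2 in 1. Neural genes were found in 4 cells, or 1.97% (0.539 to 4.97%). The intervals cover only the error of counting cells of 1 culture, and the reads behind the counts carry no molecular identifiers.

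The rule asks for a fixed number of counts per gene, so thinning cells lowers these numbers by design. The part of depth in them was not tested. The median counts of the 35, 23 and 17 cells were 1912136, 2106329 and 1917489, above the 1649199 of all cells, and with 188 cells thinned to 500000 counts each the numbers were 11, 6, 3 and 0 for the 4 lists. Sparc had counts in 202 cells with a median level of 618 CPM and Fn1 in all 203 with 434 CPM, so both were genes of the culture at large. None of the 17 genes of the 2-cell-like state, such as the Zscan4 family, is listed in the table, and that state was not analysed here.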

How the data were processed

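The authors captured single cells on microfluidic chips, made full-length cDNA without molecular identifiers and sequenced paired ends. Per the submitters' processing notes, reads were aligned with STAR 2.7 to mm10. The deposited table holds estimated counts, also called expected counts, per gene and cell, and 32.2% of its values above 0 are not whole. The authors' tables of counts of the other groups were used only to count the libraries that pass the rule. Levels in CPM are counts scaled to the same total in every cell. Exon lengths were from GENCODE on the same build and were found for 22055 of 22439 genes, with 99.7% of the counts. Genes were ranked by the scaled ratio of variance to mean (20 bins) and by the SD of log2(CPM + 1) above a lowess trend (fraction 0.3). Spearman correlations were of residuals after pool and log10 counts, and modules came from average linkage divided at a height of 0.6, with at least 10 genes. A pair of genes was checked for shared 31-base transcript words. The highest and lowest pairs left out 1870 mitochondrial genes or genes with a predicted or pseudogene symbol, which does not catch every annotated pseudogene, and had the same sign and a size of at least 0.3 in each pool; pairs of the variable genes, of markers and of partners were not so limited. Named genes were the 5 markers, the 20 highest by level and by each measure of spread, up to 25 pairs, 5 leading genes a module and up to 4 genes a list. Partners of a gene and a few others were named after their values were seen. The members and the 28 lists were chosen with earlier results of these data known. The steps were tested on simulated data. Tools were Python 3.11.15, numpy 2.4.6, pandas 2.3.3, scipy 1.17.1, statsmodels 0.14.6 and, for TMM factors as an alternative scaling, edgeR 4.0.16. Some single genes that the rules would name are not reported here.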

Additional observations from a re-analysis of the deposited data

How the results depend on the processing

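No paired analysis was possible because the labels give 1 mESC sample and no comparison was tested. Of 117 summary values under alternatives, 61 stayed within 1.5 times of the value reported and 56 moved. Leaving out the 13 cells rich in mitochondrial counts gave 4976 positive and 22 negative pairs, 3 modules with 84 genes, 10 lists with a median rho of at least 0.1, 420 genes with at least 20% of their variance between pools, and 11 of the 20 genes by dispersion. With all covariates as well, the pairs were 3849 and 18 and the lists 10. With these covariates over all cells the pairs were 37416 and 13, and 390 genes were in modules. Positive and negative pairs were 21506 and 498 without covariates, 42757 and 421 with pool as the only one, 716936 and 14534 with Pearson's r, 80912 and 2100 when 10 CPM were added before the log in place of 1, and 133343 and 709 in cells with at least 500000 counts. They were 737770 and 17109 without pool 1, 566100 and 8982 without pool 2, and 26280 and 72 without pool 3, which holds 9 of the 13 cells. Thinned to 500000 counts, they were 17922 and 181, with 13 modules of 371 genes. TMM factors gave 75718 positive pairs, 14 modules of 597 genes, and 9 of the 20 genes by dispersion. A tree height of 0.5 put 561 genes in modules, and one of 0.7 put 1772 genes in 5 modules. Of the 20 highest genes per length, 3 were among the 20 highest of the nuclear protein-coding genes ranked by themselves with pseudogene symbols left out, which removed Ftl1-ps1. Cells with primitive endoderm, trophectoderm, feeder and neural genes numbered 120, 95, 148 and 57 with 2 genes a cell, and 5, 3, 1 and 0 with 4 genes. Thinned cells gave 11, 6, 3 and 0. At 20 counts a gene the trophectoderm and feeder cells were 14 and 7, and at 5 counts the feeder cells were 27. Alternatives on nuclear genes, shared sequence, modules without the 13 cells, cells with covariates, the glycolytic module without copies and the promoter window were chosen after seeing the data. For the median rho of single lists, 233 of 275 values kept their side of the threshold of 0.1, 38 lost it, 4 gained it and 0 reversed. Single genes and pairs were not assessed in this way. Where a value moved, the cause was not tested. The depth of a cell limits what can be called undetected, and 1 culture gives no error between cultures.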
